A study of Macaca mulatta with 60 samples.

Results

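ALAS2, the erythroid form of 5-aminolevulinate synthase, was followed as 1 transcript (ENSMMUT00000011786) of 26149 on the array, over all 60 arrays of the series. The transcript, named from its description in the study's tables, was chosen by its difference between bisphenol A (BPA) exposed and control fetuses in the left atrium after late gestation exposure, where the study lists it, so its levels there are given as a description, with no test. The arrays held the ventricles (LV on the left, RV on the right), the atria (LA and RA) and the biceps femoris muscle (BFM) of 12 female rhesus monkey fetuses, 12 arrays for each of 5 tissues. Dams of the BPA groups ate a piece of fruit with 400 µg of BPA per kg of body weight every day, and control dams ate fruit with the ethanol vehicle alone. Early gestation (EG) exposure ran from day 50 to day 100 and late gestation (LG) exposure from day 100 to term, each with a tolerance of 2 days at day 100. There were 3 fetuses in each of 4 groups: fetuses 1 to 3 were EG control, 4 to 6 EG BPA, 7 to 9 LG control and 10 to 12 LG BPA. All samples were bulk tissue dissected from fetuses, and the labels name no engineered allele. EG fetuses were delivered by caesarian section whereas LG fetuses were born vaginally, so gestational age and mode of delivery cannot be told apart.

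5-Aminolevulinate synthase joins glycine and succinyl-CoA in the mitochondrion, the first and rate-limiting step of haem synthesis. Vertebrates have a housekeeping form and an erythroid form, and the latter, ALAS2, is made in erythroblasts and reticulocytes to supply haem for haemoglobin. Its messenger RNA carries an iron-responsive element, through which iron supply governs its translation. Cardiac and skeletal myocytes rely on the housekeeping form, so in a solid tissue ALAS2 messenger RNA is usually read as a mark of red cells and their precursors in the blood that the sample holds.

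Values are log2 levels after robust multi-array averaging (RMA), which was run for each tissue apart, and levels were therefore compared within a tissue only. Array medians ran from 6.24 in RV to 7.74 in BFM and spanned little within a tissue. Atrial cDNA was amplified by PCR and ventricular cDNA was not, each chamber had its own slide, and the preparation of BFM is not given in the sources used here. Myosin-6 (MYH6), the alpha heavy chain of cardiac myosin, was between 14.30 and 14.96 on all LA and RA arrays, from 5.56 to 14.43 in LV, from 5.51 to 14.23 in RV and from 6.28 to 10.60 in BFM. In bulk samples, fewer cells of a type and less RNA per cell cannot be told apart.

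ALAS2 differed strongly between fetuses of the same group. In LA it ranged from 6.49, which exceeded 44.7% of the transcripts on that array, to 12.91, which exceeded 98.1%. It ranged from 7.20 to 12.33 in RA, from 7.75 to 10.79 in LV and from 7.89 to 10.48 in RV. BFM had the narrowest range, 7.44 to 9.28. The pooled SD within groups was 1.32 in LA and 1.44 in RA, larger than that of 99.6% of all transcripts in both atria. It was 0.79 in LV, 0.82 in RV and 0.56 in BFM, larger than 66.3%, 91.5% and 92.3% of the transcripts there. A pair of arrays stood apart, LA of LG BPA fetus 10, which lay 2.98 above the next highest LA array, and RA of EG control fetus 3, which lay 2.86 above the next highest RA array.

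**Figure D1:**
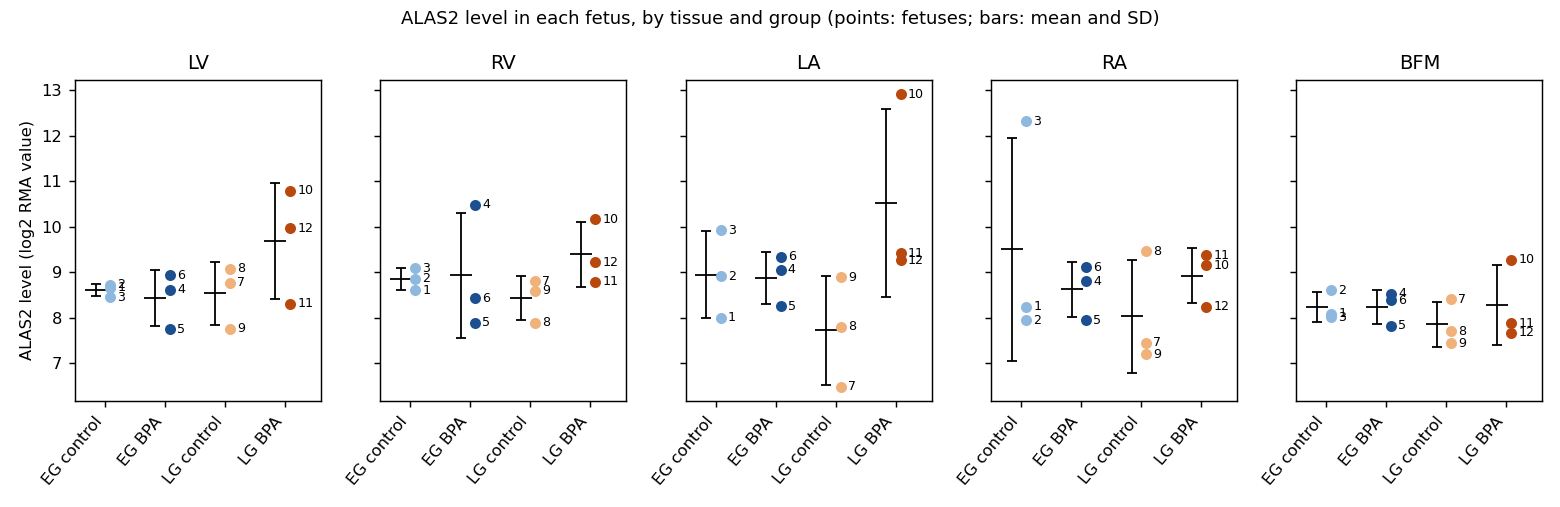
ALAS2 level (log2 RMA value, vertical axis) in LV, RV, LA, RA and BFM. Each point is 1 fetus with its number, and the bars give the mean and SD of the 3 fetuses of a group; heights are comparable within a panel only. LA of fetus 10 at 12.91 and RA of fetus 3 at 12.33 lie far above all other arrays of their tissue.

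The comparison of BPA with control in LG fetuses asked whether late exposure shifts the transcript. In LA, the tissue that chose it, the LG controls were at 6.49, 7.80 and 8.89 and the LG BPA fetuses at 12.91, 9.42 and 9.26. The groups did not overlap, as was so for 10.6% of the transcripts that entered the LA test, and the difference of 2.81 (SE 0.84, n = 3 per group) fell to 1.62 without fetus 10. In that comparison 1.09% of the LA transcripts met the study's criteria (a difference of 1 or more in either direction on the log2 scale, with an unadjusted p no higher than 0.01), and ALAS2 was chosen among them.

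The arrays of the other tissues had no part in the choice, but they come from the same fetuses. These comparisons are therefore not independent of the choice. ALAS2 was higher on average in LG BPA than in LG control fetuses in each of these tissues, with overlapping groups. In LV the LG controls were at 8.77, 9.08 and 7.76 and the LG BPA fetuses at 10.79, 8.31 and 9.97. Fetuses 10 and 12 exceeded every control and fetus 11 lay among them. The difference was 1.15 (SE 0.62, 95% interval −0.22 to 2.52, limma adjusted p = 0.983, exact two-sided permutation p = 0.3), and 0.840% of the LV transcripts met the criteria in this comparison. Without fetus 11 the LV difference was 1.84 and met the criteria (limma adjusted p = 0.714), and without fetus 10 it was 0.60. On the same LV arrays MYH6 was at 14.16, 14.43 and 14.19 in the LG controls and at 7.62, 13.45 and 5.56 in fetuses 10, 11 and 12, so that among these 6 arrays it was lowest on those with the highest ALAS2. The within-group r of MYH6 with ALAS2 was −0.71 in LV, against 0.22 in RV, 0.14 in RA, −0.27 in BFM and −0.30 in LA. In LV the SD of MYH6 was 4.09 in LG BPA fetuses and from 0.15 to 0.75 in the other groups. The LV value therefore mostly restates fetuses 10, 11 and 12, and MYH6 hardly varied in LA and RA. The study lists MYH6 for this comparison, and its part in the ALAS2 result was not tested. In RV the LG controls were at 8.81, 7.89 and 8.59 and the LG BPA fetuses at 10.17, 8.79 and 9.22. Only the lowest BPA exposed fetus, at 8.79, fell within the range of the RV controls. The RV difference was 0.96 (SE 0.58, 95% interval −0.27 to 2.19, limma adjusted p = 1.00, exact two-sided permutation p = 0.2), where 0.549% of the RV transcripts met the criteria, and was 0.58 without fetus 10.

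In RA the LG controls were at 7.45, 9.46 and 7.20 and the LG BPA fetuses at 9.16, 9.38 and 8.25. Control fetus 8 had the highest of these 6 values. The RA difference was 0.89 (SE 0.93, 95% interval −1.10 to 2.89, limma adjusted p = 0.961), and 0.439% of the RA transcripts met the criteria. It was 1.61 without control fetus 8 and 0.47 without control fetus 9. In BFM the LG controls were at 8.41, 7.71 and 7.44 and the LG BPA fetuses at 9.28, 7.88 and 7.67. Fetus 10 alone lay above the controls, and without it the BFM difference of 0.42 (SE 0.41, 95% interval −0.49 to 1.33, limma adjusted p = 0.993) became −0.08. In BFM, 0.825% of the transcripts met the criteria.

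The mean of LV, RV, RA and BFM was taken for each fetus, because the fetus and not the tissue is the replicate. These means were 8.36, 8.54 and 7.75 in LG controls and 9.85, 8.59 and 8.78 in LG BPA fetuses. The groups did not overlap, as was so for 6.29% of all transcripts, although the lowest BPA exposed fetus exceeded the highest control by little. The difference was 0.86 (SE 0.41, 95% interval −0.04 to 1.75, limma adjusted p = 1.00), the exact two-sided permutation p was 0.1, the smallest that 3 fetuses against 3 allow, and 0.157% of the transcripts met the criteria. Without fetus 10 it was 0.47, and these are the fetuses whose LA arrays chose the transcript. Averaged over all 5 tissues, which brings in the values that chose the transcript, the difference was 1.25.

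After EG exposure, ALAS2 did not rise or fall past the criteria in any tissue, and leaving out 1 fetus turned the sign of the difference in each. It became 0.17 in LV without fetus 5, −0.69 in RV without fetus 4, 0.42 in LA without fetus 3 and −0.14 in BFM without fetus 4, and the value for RA is given with its levels. In LV the EG controls were at 8.66, 8.72 and 8.45 and the EG BPA fetuses at 8.62, 7.75 and 8.93. The 3 controls lay close together and within the range of the exposed fetuses, with a difference of −0.18 (SE 0.62, 95% interval −1.54 to 1.19, limma adjusted p = 0.996). In this LV comparison 0.925% of the transcripts met the criteria. In RV the EG controls were at 8.61, 8.85 and 9.09 and the EG BPA fetuses at 10.48, 7.89 and 8.43. Exposed fetuses held both the highest and the lowest RV level, and the difference was 0.08 (SE 0.58, 95% interval −1.15 to 1.31, limma adjusted p = 1.00), where 0.615% met the criteria.

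In LA the EG controls were at 8.01, 8.92 and 9.93 and the EG BPA fetuses at 9.05, 8.25 and 9.34. The exposed fetuses lay within the controls' range, with a difference of −0.07 (SE 0.84, 95% interval −1.86 to 1.73, limma adjusted p = 1.00), and 0.582% of the transcripts met the criteria. In RA the EG controls were at 8.24, 7.95 and 12.33 and the EG BPA fetuses at 8.80, 7.95 and 9.12. The RA difference of −0.88 (SE 0.93, 95% interval −2.88 to 1.11, limma adjusted p = 1.00) became 0.53 without control fetus 3. In the RA comparison 0.439% of the transcripts met the criteria. In BFM the EG controls were at 8.09, 8.61 and 8.02 and the EG BPA fetuses at 8.53, 7.82 and 8.38. Control fetus 2 was the highest and exposed fetus 5 the lowest of these, and the others overlapped, with a difference of 0.01 (SE 0.41, 95% interval −0.90 to 0.91, limma adjusted p = 1.00), and 0.267% of the transcripts met the criteria.

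**Figure D2:**
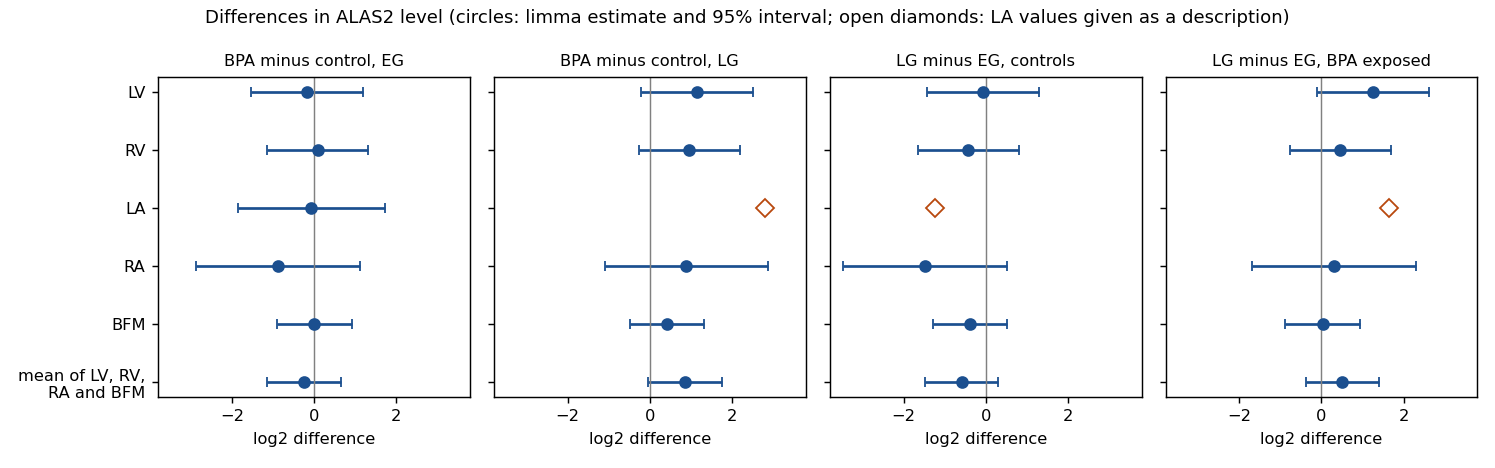
Differences in ALAS2 level (log2, horizontal axis) by tissue and for the mean of LV, RV, RA and BFM per fetus, in 4 comparisons. Circles are limma estimates with 95% intervals and open diamonds are LA values given as a description; every interval includes 0, and all 4 tested tissues have an estimate above 0 in the comparison of LG BPA with LG control.

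The gestational comparison asked whether the erythroid signal changes between day 100 and term. In controls, the mean of ALAS2 was lower at term in every tissue, but the difference passed the criteria in none of those tested and its size rested on single fetuses. It turned to 0.32 in LV without fetus 9, and shrank to −0.15 in RV without fetus 8, to −0.18 in BFM without fetus 9 and to −0.61 in LA without fetus 7. The LG minus EG difference in controls was −0.07 in LV (SE 0.62, 95% interval −1.44 to 1.30, 2.95% of transcripts meeting the criteria) and −0.42 in RV (SE 0.58, −1.65 to 0.81, 6.68%). It was −1.47 in RA (SE 0.93, −3.46 to 0.52, 5.47%), which shrank to −0.06 without EG control fetus 3. In BFM it was −0.38 (SE 0.41, −1.29 to 0.52), although 26.6% of the BFM transcripts met the criteria between these groups. In LA, given as a description, the difference was −1.23, with controls between 8.01 and 9.93 in EG and between 6.49 and 8.89 in LG, where 6.78% of the transcripts met the criteria.

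In BPA exposed fetuses the gestational difference was above 0 on average in every tissue, but leaving out 1 fetus turned its sign in RV (−0.065 without fetus 5), RA (−0.033 without fetus 5) and BFM (−0.47 without fetus 10). It was 1.26 in LV (SE 0.62, 95% interval −0.11 to 2.62, limma adjusted p = 0.438), the smallest adjusted p of the 21 comparisons tested within tissues, where 3.59% of the transcripts met the criteria. Without fetus 11 it was 1.95 and met the criteria (limma adjusted p = 0.166), and without fetus 10 it was 0.70. The same difference was 0.46 in RV (SE 0.58, −0.77 to 1.69, 6.49%), 0.30 in RA (SE 0.93, −1.69 to 2.30, 5.91%) and 0.03 in BFM (SE 0.41, −0.88 to 0.94, 23.1%). In LA, as a description, it was 1.65, and 0.46 without fetus 10, with 7.31% of the transcripts meeting the criteria. Both gestational comparisons share no fetus with each other, but each shares its fetuses with the comparisons of BPA and control.

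The difference between the BPA effects in LG and EG was tested directly. It was 1.33 in LV (SE 0.88, 95% interval −0.61 to 3.26, limma adjusted p = 0.876), 0.88 in RV (SE 0.81, −0.86 to 2.62), 1.77 in RA (SE 1.31, −1.05 to 4.59) and 0.41 in BFM (SE 0.58, −0.87 to 1.69). The share of transcripts meeting the criteria for that difference was 1.17% in LV, 0.515% in RV, 0.332% in RA and 0.499% in BFM, and ALAS2 was not among them. Leaving out 1 fetus moved it between 0.77 (without fetus 10) and 2.02 (without fetus 11) in LV, 0.35 (without fetus 5) and 1.65 (without fetus 4) in RV, and 0.36 (without fetus 3) and 2.55 (without fetus 2) in RA. In BFM it was −0.090 without fetus 10 and 0.72 without fetus 12. In LA, as a description, the difference between windows was 2.88, with 1.23% of the transcripts meeting the criteria. For the mean of LV, RV, RA and BFM it was 1.10 (SE 0.58, 95% interval −0.17 to 2.36, limma adjusted p = 0.991, 0.413% meeting the criteria). For the same fetus means the EG effect was −0.24 (SE 0.41, 95% interval −1.14 to 0.65, 0.130%), the gestational difference −0.59 in controls (SE 0.41, −1.48 to 0.31, 2.99%) and 0.51 in BPA exposed fetuses (SE 0.41, −0.38 to 1.41, 3.45%). These became 0.11 without fetus 5 for the EG effect, −0.25 without fetus 3 in controls and 0.12 without fetus 10 in BPA exposed fetuses, and the difference between windows became 0.71 without fetus 10. Of the 21 comparisons tested within tissues, limma called ALAS2 in 0, and 0 had an unadjusted p under 0.05.

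Tissues were also set against each other in their gestational difference, averaged over control and BPA exposed fetuses. Over the 6 pairs of LV, RV, RA and BFM, none of the differences between tissues met the criteria, and the smallest adjusted p was 0.416 (limma), for LV against BFM. There LV exceeded BFM by 0.77 (SE 0.54, 95% interval −0.37 to 1.91), and 14.5% of the transcripts met the criteria. These fits did not pair the tissues of a fetus. With that pairing, LV minus BFM had an SE of 0.37 (limma adjusted p = 0.223). The estimates of the other pairs were 0.57 for LV minus RV (0.976% of transcripts meeting the criteria), 1.18 for LV minus RA (2.26%), 0.60 for RV minus RA (4.07%), 0.20 for RV minus BFM (18.3%) and −0.41 for RA minus BFM (14.1%). The 95% intervals of all of them included 0. Leaving out 1 fetus turned the sign of RV minus RA (−0.043 without fetus 3) and of RA minus BFM (0.36 without fetus 3). It lowered LV minus RV to 0.23 (without fetus 4), LV minus RA to 0.43 (without fetus 3) and RV minus BFM to 0.04 (0.037, without fetus 6).

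All 5 tissues came from the same numbered fetuses, so a fetus with more erythroid RNA throughout would stand above its group in all tissues. Over LV, RV, RA and BFM, the tissues without a part in the choice, fetus 10 did so in 4 of 4, by 0.78 on average, and had the highest level of its group in 3. Fetus 10 is among the LG BPA fetuses whose LA arrays took part in the choice. Fetus 4 lay above its group mean in 4 of 4 as well, by 0.55 on average, and fetus 5 lay below it in 4 of 4, with a mean deviation of −0.71. In LA, as a description, each of them lay on the same side as in the other tissues. The other fetuses had no such common side in all tissues. Fetus 3 was 2.82 above its group mean in RA and 0.98 in LA, but 0.16 below it in LV and 0.22 below it in BFM. The highest RA array was therefore not matched by the other tissues of the same fetus to a like degree.

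**Figure D3:**
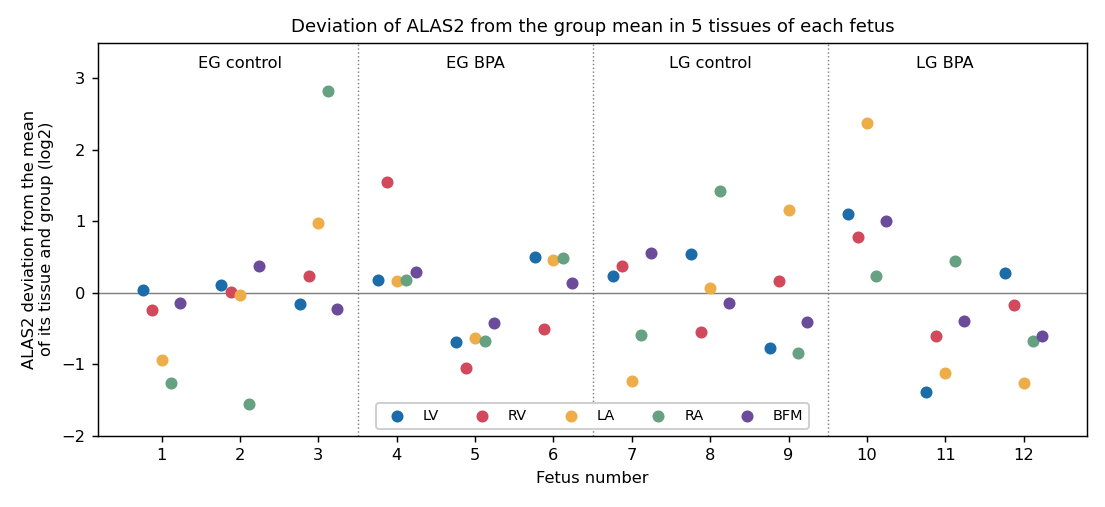
Deviation of ALAS2 from the mean of its tissue and group (log2, vertical axis) for each of 12 fetuses, with 1 point per tissue and dotted lines between groups. Fetuses 4 and 10 have all 5 points above 0 and fetus 5 has all 5 below 0, while the single RA point of fetus 3 lies at 2.82.

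Across the 12 fetuses, the deviations of ALAS2 from the group means were compared between tissues, with tests for the 6 pairs of LV, RV, RA and BFM and values alone for the 4 pairs with LA, whose LG arrays chose the transcript. Pearson's r was above 0 in 5 of the 6 pairs and none was distinguishable from 0 by exact permutation of fetuses within groups, with a smallest Benjamini-Hochberg adjusted p of 0.389 over these 6. The highest was LV with BFM (r = 0.66, exact permutation p = 0.146; Spearman's rho = 0.56, exact permutation p = 0.169). It was 0.45 without fetuses 10 and 11, the farthest from the LV median, and 0.38 without fetus 10 alone. RV with BFM had r = 0.59 (exact permutation p = 0.0648, rho = 0.57, exact p = 0.137), with 0.63 without its farthest fetuses, 4 and 5, and 0.47 without fetus 10.

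LV with RV had r = 0.39 (exact permutation p = 0.297, rho = 0.28, exact p = 0.481), with 0.12 without fetuses 10 and 11 and 0.20 without fetus 10 alone. RA had the lowest correlations with these tissues. Its r was 0.09 with LV (exact permutation p = 0.653, rho = 0.26, exact p = 0.365; 0.22 without fetuses 10 and 11). It was 0.06 with RV (exact permutation p = 0.758, rho = −0.04, exact p = 0.886; −0.07 without fetuses 4 and 5) and −0.05 with BFM (exact permutation p = 0.887, rho = 0.11, exact p = 0.726; 0.19 without fetuses 3 and 8). The mean of the 6 correlations was 0.29, higher than for 84.8% of all transcripts, whose median was 0.05 and 95th percentile 0.45, and without fetus 10 it was 0.16.

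For the pairs with LA, as descriptions, r was 0.46 with BFM, 0.42 with RV, 0.38 with LV and 0.36 with RA. Without fetus 10 it was −0.37 with BFM, 0.16 with RV, −0.19 with LV and 0.49 with RA. Over all 10 pairs the mean was 0.34, and 0.11 without fetus 10.

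Transcripts that deviate from their group means together with ALAS2 were then sought among the other 26148. Likeness was the mean over the 5 tissues of Pearson's r over 12 arrays; the points share array, fetus and dissection, and the values are descriptions with no test. The LG arrays of LA, BPA and control, that chose ALAS2 are among these arrays. The mean r over all transcripts had a median of 0.01 and a 99th percentile of 0.43. It was at least 0.6 for 24 transcripts, and 6 of them had an r of at least 0.6 in every tissue.

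The closest transcript was CAMPATH-1 antigen, CD52 (ENSMMUT00000014314), a small glycosyl-phosphatidylinositol anchored glycoprotein on lymphocytes and monocytes. Its mean r was 0.91, with 0.98 in LA, 0.96 in RA, 0.91 in LV, 0.88 in RV and 0.82 in BFM, and it deviated to the same side as ALAS2 on 53 of 60 arrays. Like ALAS2, CD52 was highest of 12 on LA of fetus 10 (12.40, next 9.93) and on RA of fetus 3 (11.95, next 9.91). The same held for 8.22% of all transcripts on the first array and 19.9% on the second. In the other atrial arrays CD52 had a median of 8.73 in LA and 8.02 in RA. It is also a member of the study's list for LA after LG exposure. Without both of these arrays, the mean r of CD52 was 0.88.

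CD52 had its own values in the comparisons, which use the same fetuses as those of ALAS2. In LV the LG controls were at 9.32, 9.30 and 7.70 and the LG BPA fetuses at 10.32, 8.35 and 10.35, a difference of 0.90 (SE 0.63, limma adjusted p = 0.983). Fetuses 10 and 12 were the highest of LV for CD52, as they were for ALAS2. Between EG BPA and LG BPA fetuses CD52 in LV met the criteria, with a difference of 1.98 (SE 0.63, limma adjusted p = 0.269). After EG exposure CD52 in LV was at 8.71, 8.99 and 8.12 in controls and at 7.65, 7.35 and 8.09 in BPA fetuses. These groups did not overlap (10.7% of the LV transcripts), with a difference of −0.91 (SE 0.63, limma adjusted p = 0.982), against −0.18 for ALAS2. In BFM, where CD52 did not pass the filter on variation, the EG controls were at 7.69, 8.15 and 7.91. The EG BPA fetuses were at 7.39, 7.25 and 7.68, without overlap, as was so for 10.2% of all BFM transcripts, and ALAS2 differed by 0.01. In RV, LA and RA the EG groups of CD52 overlapped. In RA, where the LG BPA fetuses were at 8.76, 8.70 and 8.72, CD52 lay within the range of the controls (7.86, 9.91 and 8.02), and the difference was 0.13 (SE 0.87, limma adjusted p = 1.00).

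**Figure D4:**
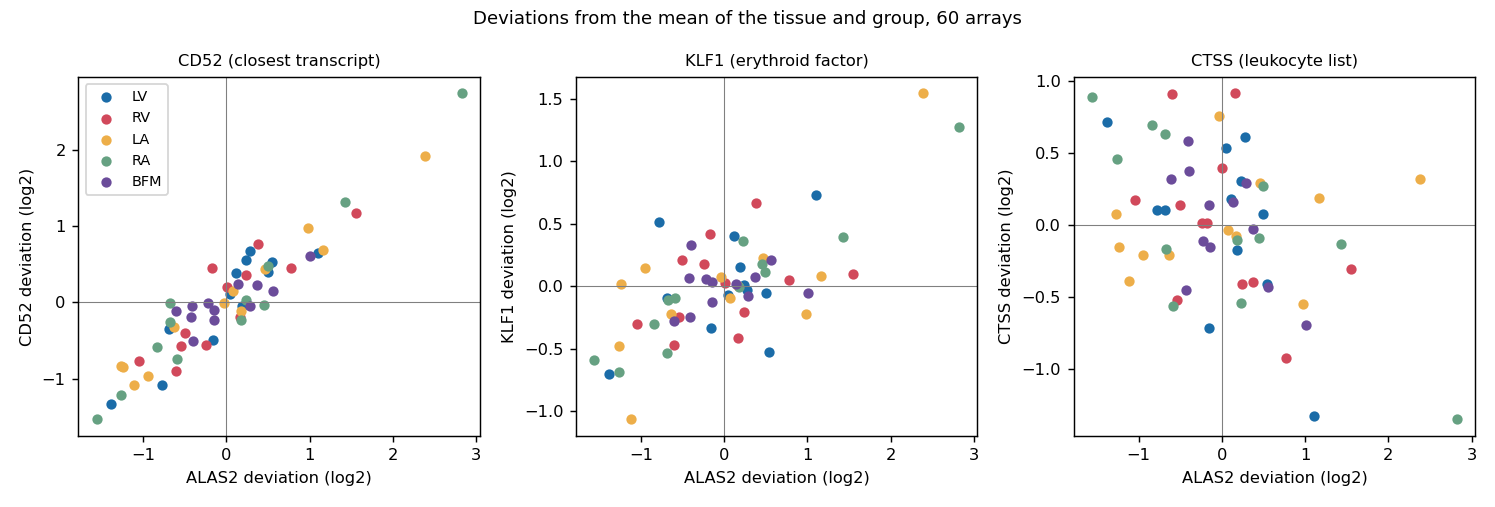
Deviation from the mean of the tissue and group (log2) of CD52, KLF1 and cathepsin S (CTSS) against that of ALAS2 on 60 arrays, coloured by tissue. CD52 deviates to the same side as ALAS2 on 53 arrays, KLF1 on 38 and CTSS on 24, and the 2 points far to the right are LA of fetus 10 and RA of fetus 3.

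The next closest transcript, ENSMMUT00000033373, is listed without a protein name in the tables used here, and its mean r was 0.89, with its lowest r, 0.82, in RV. It was abundant, with levels of 14.54 on LA of fetus 10 and 14.51 on RA of fetus 3, again the highest of 12. The 10 closest transcripts had mean r from 0.73 to 0.91, and CD52 was the 1 among them with a protein name. On LA of fetus 10, 9 of the 10 were at their highest level of the tissue, and on RA of fetus 3 all 10 were, as a description, since the search used both arrays. Of all transcripts, 8.22% were at their highest on LA of fetus 10 and 19.9% on RA of fetus 3. At the other end, ENSMMUT00000028998 and ENSMMUT00000028402 had mean r of −0.62 each, also without a name.

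The 10 closest transcripts tended to share the pattern of ALAS2 in LG fetuses, as descriptions that use the same arrays as the search. They were picked for varying together, so their signs are not separate observations. Their LG BPA minus control difference was above 0 for 10 of 10 in LV (51.5% of all transcripts), LA (48.6%) and BFM (51.4%). It was above 0 for 8 of 10 in RV (51.0%) and 9 of 10 in RA (52.7%). The medians of these differences were 1.61 in LA, 0.68 in LV, 0.44 in RV, 0.38 in RA and 0.33 in BFM, and the medians over all transcripts lay between −0.01 and 0.02. Of the members that passed the filter on variation, 2 of 7 met the criteria in LA (both higher; 1.09% of all LA transcripts did), 0 of 7 in LV (0.840%), 0 of 9 in RV (0.549%), 0 of 8 in RA (0.439%) and 1 of 7 in BFM (higher; 0.825%). The member in BFM was ENSMMUT00000033373, with a difference of 1.05 (SE 0.30, limma adjusted p = 0.660). After EG exposure, 0 of 7 tested members met the criteria in LV (0.925% of all LV transcripts did), 0 of 9 in RV (0.615%), 0 of 7 in LA (0.582%), 0 of 8 in RA (0.439%) and 0 of 7 in BFM (0.267%), so the counts are near the background, and the medians ran from −0.42 in RA to 0.22 in RV.

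Between windows in controls, 2 of the 7 tested members fell in BFM toward term, where 26.6% of all BFM transcripts were called, so the count is near the background. They were ENSMMUT00000033373, with a difference of −1.56 (SE 0.30, limma adjusted p = 0.00191), and ENSMMUT00000033372, with −1.36 (SE 0.30, limma adjusted p = 0.00350). The median of the 10 in BFM was −0.38. In the remaining tissues 1 of 7 tested members fell in LA (6.78% of all LA transcripts were called), and 0 of 7 were called in LV (2.95%), 0 of 9 in RV (6.68%) and 0 of 8 in RA (5.47%), with medians of −0.58 in LA, −0.21 in LV, 0.04 in RV and −0.53 in RA. In BPA exposed fetuses, 1 of 7 tested members was called in LV (CD52; 3.59% of all LV transcripts) and 2 of 7 in LA (7.31%), all higher at term, and 0 of 9 in RV (6.49%), 0 of 8 in RA (5.91%) and 0 of 7 in BFM (23.1%).

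**Figure D5:**
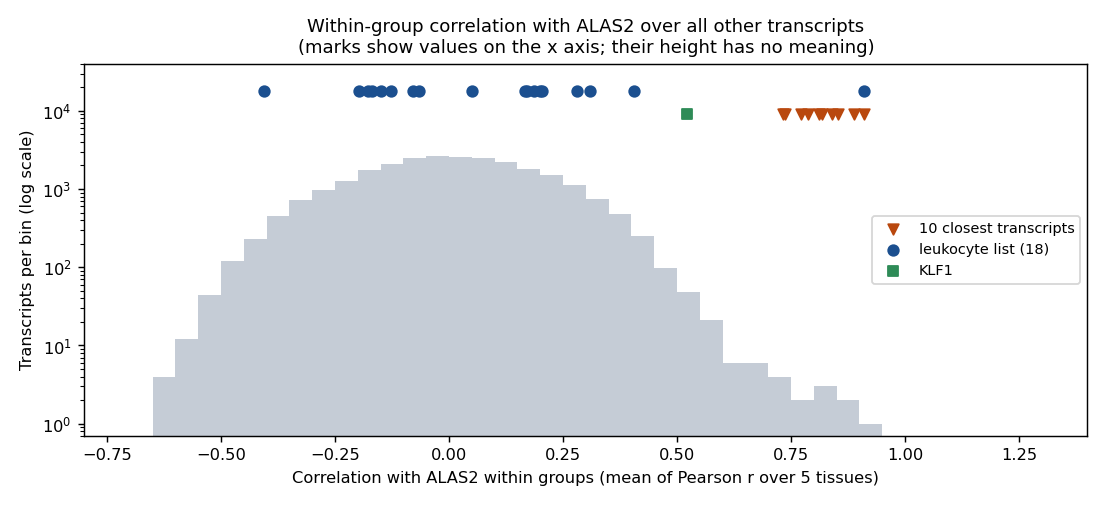
Number of transcripts (vertical axis, log scale) by mean within-group correlation with ALAS2 (horizontal axis, mean of Pearson r over 5 tissues). Triangles mark the 10 closest transcripts (0.73 to 0.91), the square KLF1 (0.52) and circles the 18 leukocyte transcripts, of which CD52 lies at 0.91 and the others between −0.41 and 0.41.

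Among the 191 transcripts with a protein name, Krueppel-like factor 1 (KLF1, ENSMMUT00000015710) ranked 62 of all 26148, but 268 without LA, 493 without LA of fetus 10 and RA of fetus 3, and 1062 without fetus 10. KLF1 is a transcription factor of erythroid cells that activates the beta globin gene and genes of haem synthesis. Its mean r was 0.52, with 0.95 in RA and 0.73 in LA but 0.41 in LV, 0.32 in RV and 0.20 in BFM. KLF1 was highest of 12 on LA of fetus 10 (6.87, next 5.62; 8.22% of all transcripts) and on RA of fetus 3 (6.95, next 5.41; 19.9%). Without these arrays its mean r was 0.34. Over most arrays its level was low, with medians over the other arrays of 4.84 in LA and 5.06 in RA.

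In LV of EG fetuses, KLF1, like CD52, was lower on every BPA array than on any control array. These groups did not overlap for 10.7% of the LV transcripts, in either direction. The EG controls were at 5.76, 6.22 and 5.49 and the EG BPA fetuses at 4.54, 4.29 and 4.33, and the difference of −1.44 (SE 0.45, limma adjusted p = 0.982) met the criteria, as did 0.925% of the LV transcripts. The study lists KLF1 for that comparison, so the value is no independent evidence of its direction. ALAS2 differed by −0.18 between the same arrays, with overlapping groups. In BFM the EG groups of KLF1 were separated the other way, with a difference of 0.28 (10.2% of all BFM transcripts did not overlap). In LA they were separated with a lower level after BPA, by −0.95. They overlapped in RV (−0.28) and RA (−0.50). In the LG comparison KLF1 differed by 0.50 in LA, 0.42 in RA, 0.27 in BFM, 0.13 in RV and 0.05 in LV, and was not called where it was tested.

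Other named transcripts near ALAS2 were an interferon-induced protein with tetratricopeptide repeats 1-like (mean r 0.61, with 0.94 in both atria and 0.04 in BFM) and copper-transporting ATPase 2 (0.47), which exports copper from hepatocytes. Then followed ankyrin repeat domain-containing protein 58 (0.44), tumor necrosis factor (0.41), phosphoethanolamine/phosphocholine phosphatase (0.40), mucin-5B (0.38), alcohol dehydrogenase class 4 (0.36) and receptor-type tyrosine-protein phosphatase R (0.35). Those from ankyrin repeat domain-containing protein 58 on ranked 236 or lower among all transcripts. The lowest named were cathepsin S (−0.41), a protease of antigen presenting cells, the beta subunit of follicle stimulating hormone (−0.40) and eukaryotic translation initiation factor 5A-2 (−0.40). Hemopexin (HPX), the plasma protein that binds free haem, had a mean r of −0.15.

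The leukocyte list was used as a second marker of blood cells. It held 18 transcripts, all described from lists that the study chose on these samples: 10 from LA after LG exposure, 5 from LV after EG exposure and 3 from LV after LG exposure. Their mean r with ALAS2 was above 0 for 10 and below 0 for 8, with a median of 0.11, and 0.05 without CD52. CD52 was the 1 member above the 99th percentile of all transcripts. Many members were low in level. In LV, where array medians lay between 6.55 and 6.66, TCL1A had a median of 2.79, HRH4 3.24 and TNF 3.56. Only CD52 (8.53), PSTPIP2 (7.06) and lymphocyte cytosolic protein 2 (6.68) exceeded that range in LV. For members that low, an r near 0 cannot tell whether leukocytes follow ALAS2, and their calls in LV carry the same limit. The granulocyte colony-stimulating factor receptor had a mean r of 0.28 and the cytokine receptor common subunit beta 0.31, while acyloxyacyl hydrolase was at −0.20 and thromboxane-A synthase at −0.08. Within LA alone some members had a high r, 0.92 for the low affinity Fc gamma receptor II-b and 0.85 for lymphocyte cytosolic protein 2, which in BFM were at −0.39 and −0.60.

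In the LG comparison, 9 of the 13 leukocyte members tested in LA were called higher and 1 lower (1.09% of all LA transcripts were called), but this comparison supplied 10 of the members. In LV, 2 of 17 were called higher, SKAP1 and TCL1A, and 1 lower, RGS18 (0.840% of all LV transcripts were called), and these are the 3 that came from the LV list. In the tissues that chose no member, 0 of 10 in RV (0.549%), 0 of 12 in RA (0.439%) and 0 of 3 in BFM (0.825%) were called. The medians of the LG difference over all 18 were 0.08 in LV, 0.06 in RV, 0.13 in RA and 0.04 in BFM. After EG exposure 1 of 17 was called higher and 4 lower in LV (0.925% of all LV transcripts were called), a comparison that supplied 5 members. In the other tissues 0 of 10 were called in RV (0.615%), 0 of 13 in LA (0.582%), 0 of 12 in RA (0.439%) and 0 of 3 in BFM (0.267%). Between windows in controls, the medians of the 18 were above 0 in every tissue, at 0.26 in RA, 0.22 in RV, 0.21 in LA, 0.14 in BFM and 0.07 in LV, where the ALAS2 differences were below 0. Of the members tested there, 1 of 17 was called higher (TNF) and 1 lower (HRH4) in LV (2.95% of all LV transcripts), 1 of 13 higher in LA (6.78%), 1 of 12 lower in RA (5.47%), 0 of 10 in RV (6.68%) and 0 of 3 in BFM (26.6%). TNF and HRH4 came from the LV list after EG exposure, which the same EG control arrays chose. In BPA exposed fetuses, 6 of 17 were called higher and 1 lower in LV (3.59%), 9 of 13 higher in LA (7.31%), 1 of 12 higher in RA (5.91%), 0 of 10 in RV (6.49%) and 0 of 3 in BFM (23.1%). The medians were 1.26 in LV, 1.03 in LA, 0.50 in RA, 0.39 in RV and 0.11 in BFM, and the ALAS2 differences in the same order were 1.26, 1.65, 0.30, 0.46 and 0.03. In both comparisons between windows, the LV and LA counts use arrays on which the study's lists chose the members, so they are descriptions. Of the genes written down as erythroid markers, KLF1 and ALAS2 could be named here, and the globins, the other enzymes of haem synthesis and the red cell membrane proteins were not analysed. Whether blood content moved ALAS2 in fetus 10, in fetus 3 or in the LG BPA group was not tested.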

How the data were processed

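Transcript levels were measured on NimbleGen arrays in 60 samples, from 5 tissues of 12 fetuses, grouped by the labels. The authors deposited log2 values, made within each tissue by RMA (background correction, quantile normalization and median polish), with the Ensembl transcripts of the Mmul_1 build. Scanner intensities were not used, and precision is limited by the number of arrays. Nothing was recovered by name from the gene tables, which shared 0 identifiers with the value table, so protein names were taken from descriptions in the study's supplementary tables, held for 566 transcripts, 191 of them with a protein name.

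The filter of the study's methods (an interquartile range of 0.5 or more within the tissue) kept between 7903 transcripts (LA) and 17628 (LV), ALAS2 among them in each tissue. Group means over 12 arrays per tissue were fitted with limma 3.58.1 in R 4.3.3 (statmod 1.5.0), with Benjamini-Hochberg adjustment over all transcripts tested. Calls needed a log2 difference of 1 or more in either direction and an unadjusted p no higher than 0.01. Fetus means were fitted on all 26149 transcripts. Exact permutation tests were two-sided, with 10 splits of 6 fetuses for a difference and 1296 arrangements of fetuses within groups for a correlation. Correlations were planned as tests over all 10 pairs of tissues (smallest adjusted p by exact permutation 0.545), but the 4 pairs with LA are given without a p because LA chose the transcript, a change made after the values were seen. Correlations were computed in Python 3.11.15 with numpy 2.4.6, pandas 2.3.3 and scipy 1.17.1, figures with matplotlib 3.10.9. The fits and the search for close transcripts were tested on simulated data.

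The transcript, the lists and the tests were chosen with earlier results of these data known. Transcripts named were ALAS2, the 2 closest and 2 farthest of all, the 10 closest and 3 farthest with a protein name, and list members on which a result turned; ENSMMUT00000033372 was named after its value was seen. The fetus numbers pair the samples, because a number is the same animal in every tissue. The consensus correlation between tissues of a fetus, after tissue and group, was 0.0557. Counts within 1.5 times of each other were taken as alike, and a fit on fewer arrays kept the transcripts of the full filter.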

Additional observations from a re-analysis of the deposited data

How the results depend on the processing

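Within tissues, ALAS2 stayed short of the criteria in the 21 tested comparisons under no filter on variation, median centring, array weights, a further quantile normalization, trend and robust settings, removal of low transcripts, no threshold on the fold change and an adjusted p of at most 0.05, and, for all but the difference between windows, in fits on only 6 arrays. Of these settings, the fetus means were run with median centring and the further quantile normalization, and the differences between tissues with median centring, also short of the criteria. At an interquartile range of at least 1 it was not among the transcripts of LV, RV and BFM, and these values could not be had. Differences near 0 changed sign: with array weights, EG BPA minus control became 0.00 (0.0019) in LV, 0.35 in LA and −0.0046 in BFM, and a further quantile normalization made it −0.0041 in BFM. Leaving out fetuses 3 and 10, an alternative chosen after seeing the data, made it 0.53 in RA and 0.093 for the fetus means. Leaving out each fetus in turn, EG BPA minus control ran from −1.66 to 0.53 in RA, −0.54 to 0.42 in LA, −0.14 to 0.22 in BFM, −0.69 to 0.61 in RV, −0.42 to 0.17 in LV and −0.52 to 0.11 for the fetus means. LG BPA minus control ran from 0.60 to 1.84 in LV and −0.083 to 0.72 in BFM, and LG minus EG in BPA exposed fetuses from 0.70 to 1.95 in LV, −0.47 to 0.33 in BFM, −0.065 to 1.23 in RV and −0.033 to 0.64 in RA. Both LV differences met the criteria without fetus 11, at 1.84 (limma adjusted p = 0.714) and 1.95 (limma adjusted p = 0.166). LG minus EG in controls ran from −0.34 to 0.32 in LV, the difference between windows from −0.090 to 0.72 in BFM, and differences between tissues from −0.043 to 1.10 for RV minus RA and −0.89 to 0.36 for RA minus BFM. With the fetus as a block, pairing the tissues, LG BPA minus control over 48 arrays was 0.86 (limma adjusted p = 0.929) and LV minus BFM 0.77 (limma adjusted p = 0.223), and the block changed no call. The causes of these changes were not tested. Pairs of tissues without LA, and r without fetus 10 alone, were alternatives chosen after seeing the data. CD52 was the closest or next closest transcript under all settings that kept it, with r from 0.85 to 0.94, and 8 to 10 of the 10 closest recurred, except that 4 recurred among transcripts with an interquartile range of at least 0.5 in all 5 tissues, where CD52 was not a candidate. Numbers of called transcripts over all genes moved by over 1.5 times in 13 of 25 comparisons with array weights and in 23 of 25 when the minimum interquartile range was 1. They also did so in 23 of 25 at an adjusted p of at most 0.05, where the lowest number was 0.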
